A study of Mus musculus with 4 samples.

Results

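The antigen presentation genes are 10 genes of the machinery that displays peptides to T cells, namely H2-K1, H2-D1, B2m, Tap1, Tap2, Tapbp, Psmb8, Psmb9, Cd74 and Ifi30. They were chosen by symbol and matched to the Entrez identifiers of the count table, and 9 of the 10 were found among its 12700 genes. B2m, which encodes beta-2 microglobulin, is not analysed here. The series compared the brain of C57BL/6 Ids-ko mice, which lack the lysosomal enzyme iduronate-2-sulfatase and serve as a model of mucopolysaccharidosis type II (Hunter syndrome), with that of wild type (wt) littermates, all 9 months old and without treatment. RNA was taken from the cerebral cortex (Cx) and from midbrain, diencephalon and hippocampus together (M). RNA of 7 mice was pooled in each of the 4 conditions, which gave 1 library each, called CxH (Cx, Ids-ko, genotype label Ids-/-), CxWT (Cx, wt), MH (M, Ids-ko) and MWT (M, wt). Both areas were taken from each brain, so by their labels CxH and MH came from the same mice, as did CxWT and MWT. Because no condition was replicated, neither the variation between mice nor that between libraries could be measured, and the standard errors (SE) and 95% exact Poisson intervals given here cover counting error only.

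Class I molecules carry peptides of cytosolic proteins to the cell surface, where CD8 T cells read them. The proteasome cuts the proteins, the transporter TAP moves the peptides into the endoplasmic reticulum, and a loading complex with tapasin puts them onto a heavy chain paired with beta-2 microglobulin. Class II molecules carry peptides from endosomes and lysosomes to CD4 T cells, and in the brain parenchyma both systems are found mainly in microglia, macrophages and vessel cells and are low at rest.

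The 4 libraries held between 16380080 (MWT) and 23475080 (CxH) reads on genes, and the 9 genes together took 3764 to 5241 of them. Levels are given as RPM, which are the reads of a gene scaled to 1000000 aligned reads of its library. Ids itself was at 135 RPM in CxH against 354 RPM in CxWT, but at 368 RPM in MH against 155 RPM in MWT, so that in M its level went against the genotype labels. Markers of the areas did not follow the area labels either. The summed level of 11 genes of cortical neurons was 1885 RPM in CxH and 1762 RPM in MH but 354 RPM in CxWT and 299 RPM in MWT, while that of 13 genes of midbrain and diencephalic neurons was 38.3 and 49.1 RPM in CxH and MH but 533 and 472 RPM in CxWT and MWT. A single gene gave 1359 and 1240 RPM of the cortical sums in CxH and MH. In CxH vs. CxWT 9 of the 11 cortical genes were called higher and 0 lower, beside 9.46% and 11.5% of all genes. Among the largest log2 ratios of CxH vs. CxWT in these lists were those of Fezf2 (3.47) and Neurod6 (3.45), and, lower in CxH, of En1 (-8.29 ± 1.445, 1 read against 273), Slc6a4 (-7.95 ± 0.83, 3 against 647) and Gata3 (-7.76 ± 1.45, 1 against 189). Each library is therefore named by its label only, and area, genotype and any exchange of samples cannot be told apart in the comparisons below. In pooled tissue, fewer cells of a type and less RNA per cell cannot be told apart either.

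The class I heavy chains H2-D1 and H2-K1, which hold the peptide and are recognised by T cells and natural killer cells, were the most abundant of the 9 genes per transcript length in every library. H2-D1 was at 48.6 RPM in CxH, 42.7 RPM in CxWT, 34.15 RPM in MH and 59.2 RPM in MWT, and all neighbours in this order of levels were separated by more than 1.96 SE before any correction. H2-K1 was at 34.6 RPM in CxH, 33.5 RPM in CxWT, 26.3 RPM in MH and 34.9 RPM in MWT, so that MH was below the other 3 libraries, whose neighbouring values were within counting error. H2-D1 lies at chr17:35399675-35404444 on the plus strand and H2-K1 at chr17:34132962-34137278 on the minus strand (NCBIM37/mm9, GENCODE vM1).

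The H2-D1 ratio of MH vs. MWT was -0.79 ± 0.05 (log2, SE), which met the threshold for a call, here a log2 ratio of 0.7 or more in either direction together with a likelihood ratio p-value under 0.05 for the reads of 2 libraries. The call was lost with a log2 threshold of 1 and with an assumed coefficient of variation of 0.2. The ratio of CxH vs. CxWT was 0.19 ± 0.05 and was not called, and it turned to -0.02 after correction for GC content and length, so the order of these libraries did not hold. For H2-K1 the log2 ratios were -0.41 ± 0.06 in MH vs. MWT and 0.04 ± 0.06 in CxH vs. CxWT, and neither was called. H2-K1 made up 37.1% of the reads of these 2 heavy chains in MWT and 41.55% to 44.0% in the other 3 libraries.

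Heavy chain genes are close copies of each other, and reads that fitted more than 1 gene were left out by the authors. The sequences of exon 4, which encodes the domain next to the membrane, show how little separates the pair. Exon 4 of H2-K1 lies at chr17:34134230-34134505 (minus strand) and that of H2-D1 at chr17:35402729-35403004 (plus strand, both NCBIM37/mm9), and capitals mark the bases that differ.
H2-K1: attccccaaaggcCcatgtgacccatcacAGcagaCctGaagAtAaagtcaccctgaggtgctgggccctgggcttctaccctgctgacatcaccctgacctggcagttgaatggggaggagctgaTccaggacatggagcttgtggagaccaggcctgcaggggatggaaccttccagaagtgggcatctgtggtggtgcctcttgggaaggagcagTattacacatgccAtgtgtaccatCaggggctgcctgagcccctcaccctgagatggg
H2-D1: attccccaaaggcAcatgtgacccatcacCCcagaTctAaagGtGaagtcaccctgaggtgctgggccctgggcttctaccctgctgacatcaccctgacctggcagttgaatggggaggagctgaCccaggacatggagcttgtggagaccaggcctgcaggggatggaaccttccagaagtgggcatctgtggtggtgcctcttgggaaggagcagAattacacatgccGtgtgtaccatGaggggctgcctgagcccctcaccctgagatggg
The exons are 276 bases long and differ at 11 positions (96.0% identity). Exons 2 and 3, which encode the peptide groove, were 91.1% and 88.0% identical. Of the windows of 50 bases along the longest H2-K1 transcript, 8.9% were found unchanged in a transcript of another H2 gene and 41.1% within 2 mismatches of one. For H2-D1 these shares were 12.2% and 35.7%. Reads from such stretches could be dropped or exchanged between H2 genes, so the levels of both genes are uncertain to that extent.

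Tap1 and Tap2 encode the subunits of the peptide transporter, and Tapbp encodes tapasin, which holds the empty heavy chain at the transporter. Tap1 was at 3.64 RPM in CxH, 3.30 RPM in CxWT, 2.92 RPM in MH and 3.56 RPM in MWT, and no neighbouring values differed beyond counting error. Tap2 was at 7.19 RPM in CxH, 5.68 RPM in CxWT, 4.26 RPM in MH and 5.63 RPM in MWT, with CxH highest and MH lowest before any correction. After correction for GC content and length MWT was above CxH, with a log2 ratio of CxH vs. MWT of -0.18. Its log2 ratio of CxH vs. MH was 0.76 ± 0.14, which was called, and 0.605, under the threshold, after correction for GC content and length. Its ratios of CxH vs. CxWT (0.34 ± 0.14) and MH vs. MWT (-0.40 ± 0.16) were not called. With the correction they were 0.10 and -0.785, and the latter was then called.

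Tapbp had another order. It was at 21.1 RPM in CxH, 19.2 RPM in CxWT, 19.8 RPM in MH and 15.0 RPM in MWT, so MWT was the lowest library by these values. After correction for GC content and length its distance to MH (0.05) and to CxH (-0.02, turned) was close to 0 on the log2 scale. The log2 ratio of Tapbp was 0.40 ± 0.09 in MH vs. MWT and 0.14 ± 0.08 in CxH vs. CxWT, neither of which was called.

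Psmb8 and Psmb9 encode inducible catalytic subunits of the immunoproteasome, which take the places of Psmb5 and Psmb6 in cells exposed to interferon gamma and in immune cells. Psmb8 was at 3.48 RPM in CxH, 1.70 RPM in CxWT, 1.74 RPM in MH and 2.66 RPM in MWT, from 134, 57, 65 and 77 reads. CxH and MWT were the higher pair and did not differ from each other beyond counting error, and neither did CxWT and MH. The log2 ratio was 1.04 ± 0.23 in CxH vs. CxWT, a 2.05-fold higher level in CxH that was called (not so where at least 100 reads were required in both libraries), and -0.61 ± 0.24 in MH vs. MWT, which was called only after correction for GC content and length (-0.715). Psmb9 had the fewest reads of the 9 genes, 52 in CxH and 32 to 34 in the others. It was at 1.35 RPM in CxH, 0.952 RPM in CxWT, 0.883 RPM in MH and 1.175 RPM in MWT, and no neighbouring values were separated by more than 1.96 SE.

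Cd74 encodes the invariant chain, which guides class II molecules to endosomes. It was at 10.05 RPM in CxH, 8.835 RPM in CxWT, 7.79 RPM in MH and 5.56 RPM in MWT. MWT was below the other 3 libraries, among which neighbouring values did not differ beyond counting error. CxH was above MH, however, with a log2 ratio of 0.37 ± 0.11, which was 0.14 after correction for GC content and length. The log2 ratio of Cd74 was 0.49 ± 0.14 in MH vs. MWT and 0.19 ± 0.11 in CxH vs. CxWT, and neither was called.

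Ifi30 encodes GILT, a lysosomal thiol reductase that opens disulfide bonds of antigens before they are loaded onto class II molecules. It was at 6.10 RPM in CxH, 2.53 RPM in CxWT, 2.92 RPM in MH and 5.04 RPM in MWT, from 235, 85, 109 and 146 reads. It had the widest range of the 9 genes, with the highest library 2.41 times the lowest, and CxH and MWT again formed the higher pair. The log2 ratio was 1.27 ± 0.18 in CxH vs. CxWT and -0.79 ± 0.18 in MH vs. MWT, and both were called. The call in MH vs. MWT was lost after correction for GC content and length (-0.60), with a log2 threshold of 1 and with an assumed coefficient of variation of 0.2, and that in CxH vs. CxWT where at least 100 reads were required in both libraries, since CxWT had 85. In CxH vs. CxWT, 96.9% of the 12337 genes with at least 100 reads over the pair had a lower ratio than Ifi30.

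**Figure D1:**
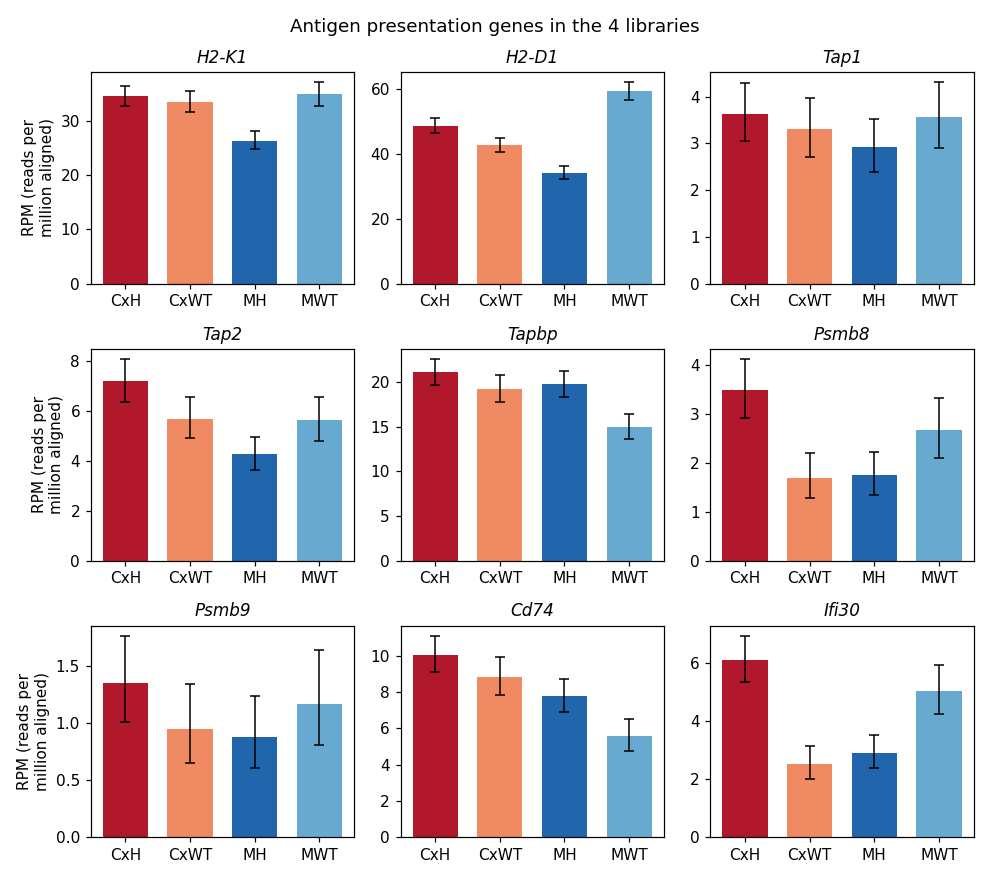
Level of each of the 9 genes (vertical axis, RPM, reads scaled to 1000000 aligned reads, starting at 0) in the 4 libraries (horizontal axis). Bars are the single libraries and error bars 95% exact Poisson intervals. Ifi30 and Psmb8 are high in CxH and MWT, whereas Cd74 and Tapbp are lowest in MWT, at 5.56 and 15.0 RPM, before any correction. With the correction for GC content and length together, the log2 ratio of Tapbp in MH vs. MWT is 0.05.

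Per kilobase of transcript, which allows levels of different genes to be compared, H2-D1 and H2-K1 were at 16.25 to 28.15 and 16.4 to 21.8 RPM per kb over the 4 libraries. Tapbp followed at 5.17 to 7.30 RPM per kb, Cd74 at 3.945 to 7.13 and Ifi30 at 2.58 to 6.23. Tap1, Tap2, Psmb8 and Psmb9 were the lowest, between 0.659 (Psmb9 in MH) and 2.14 RPM per kb (Psmb8 in CxH). Tapasin was thus above the transporter subunits it binds in all 4 libraries.

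Each comparison shares its libraries with others, and the calls of one are not independent of the next. In CxH vs. CxWT all 9 genes had a ratio above 0, with a median log2 ratio of 0.19 against -0.09 over all genes. After correction for GC content and length, described further on, 4 of the 9 were above 0 and the median turned to -0.02. Of the 9, Psmb8 and Ifi30 were called higher in CxH and 0 lower, beside 9.46% of all genes called higher and 11.5% called lower. In MH vs. MWT, 2 of the 9 (Tapbp and Cd74) had a ratio above 0, and the median was -0.41 against -0.07 over all genes and -0.60 after the correction. H2-D1 and Ifi30 were called lower in MH and 0 genes higher, where 12.7% of all genes were called lower and 12.3% higher.

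In CxH vs. MH all 9 ratios were again above 0, from 0.10 (Tapbp) to 1.065 (Ifi30), with a median of 0.51 against 0.015 over all genes and 0.18 over genes of the same GC range. With the GC and length correction the median was 0.34 and Tapbp turned to -0.07. Tap2, Psmb8 and Ifi30 were called higher in CxH and 0 lower, in a comparison that called 2.43% of all genes higher and 1.06% lower. The call of Tap2 was lost with that correction, with a log2 threshold of 1 and with an assumed coefficient of variation of 0.2, and the call of Psmb8 where at least 100 reads were required in both libraries (65 in MH). The Psmb8 ratio was 1.0 ± 0.22 and that of Ifi30 was above the ratio of 99.6% of the 12248 genes with at least 100 reads over the pair. In CxWT vs. MWT the median was -0.11 against 0.045 over all genes and -0.32 after the GC and length correction, and Ifi30 alone was called, lower in CxWT (-0.996 ± 0.20), where 2.11% of all genes were called lower and 5.43% higher. That call was lost with a log2 threshold of 1 and where at least 100 reads were required (85 in CxWT), and Psmb8 was called lower as well with column totals and with the GC and length correction (-0.74 under each). Cd74 had a ratio of 0.67 ± 0.14 there, above 93.9% of the 12220 genes with at least 100 reads, and was just under the threshold.

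In the other 2 pairs the libraries differ in both labels. For CxH vs. MWT, Cd74 was called higher in CxH (0.85 ± 0.14) and 0 of the 9 lower, where 15.6% of all genes were called higher and 15.1% lower, and that call was lost with a log2 threshold of 1, with an assumed coefficient of variation of 0.2 and after correction for GC content and length. The ratio of Ifi30 was 0.275 ± 0.15 and that of Psmb8 was 0.39 ± 0.21 in that pair. For MH vs. CxWT, 0 of the 9 genes were called in either direction, beside 6.41% of all genes called higher and 8.89% lower, and the 9 ratios lay between -0.42 (Tap2) and 0.21 (Ifi30).

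**Figure D2:**
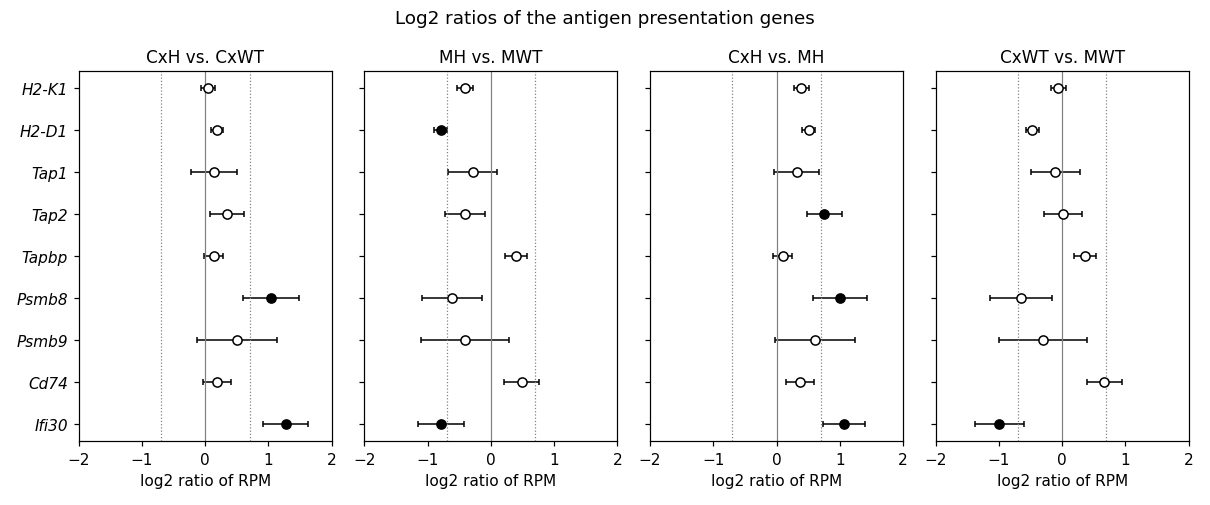
Log2 ratios of RPM (horizontal axes) of the 9 genes (rows) in the 4 comparisons of the study (panels). Error bars are 1.96 SE from counting, filled points were called, and dotted lines mark a log2 ratio of 0.7 in either direction. Ifi30 is called in all 4 panels, higher in CxH in the panels with that library and lower in MH and in CxWT when set against MWT, but only the call in CxH vs. MH holds under all 9 alternatives, and the ratio of MH vs. MWT is -0.60 after the GC and length correction.

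The contrast of the genotype labels differed between the area labels for several genes. Subtracting the log2 ratio of MH vs. MWT from that of CxH vs. CxWT gave 2.06 ± 0.26 for Ifi30, 1.65 ± 0.33 for Psmb8, 0.98 ± 0.07 for H2-D1, 0.745 ± 0.21 for Tap2 and 0.45 ± 0.09 for H2-K1. For Tapbp the difference was of the other sign (-0.265 ± 0.12), and for Cd74 (-0.30 ± 0.18), Tap1 and Psmb9 it was within 1.96 SE of 0. After correction for GC content and length the Tapbp ratios lay closer together, at -0.108 in CxH vs. CxWT and 0.05 in MH vs. MWT. Ids gave -2.63 ± 0.03 on the same scale, so that Ifi30, Psmb8 and H2-D1 were higher in the libraries where Ids was lower, CxH and MWT, except that for H2-D1 the ratio of CxH vs. CxWT turned to -0.02 after correction for GC content and length. With 1 library per condition these differences have no replicate error.

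The immunoproteasome subunits can be set against the constitutive subunits they replace. Per length, Psmb8 was at 3.70% of Psmb5 in CxH against 1.98% in CxWT, and at 2.41% in MH against 4.27% in MWT. The ratio of Psmb8 to Psmb5 was thus higher in CxH than in CxWT by 0.90 ± 0.23 and lower in MH than in MWT (-0.82 ± 0.25, both log2). Psmb9 was at 1.45% of Psmb6 in CxH against 0.953% in CxWT and at 1.19% in MH against 1.63% in MWT, and none of its differences between genotype labels passed 1.96 SE. Psmb10, the third inducible subunit, which stands in for Psmb7, went another way. It was at 33.3%, 32.4% and 32.5% of Psmb7 in CxH, CxWT and MH but at 11.6% in MWT. The transcripts of Psmb10 and Psmb7 differ in GC content (56.5% and 48.7%). These percentages are not corrected for it, and its part in the low MWT value was not tested.

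**Figure D3:**
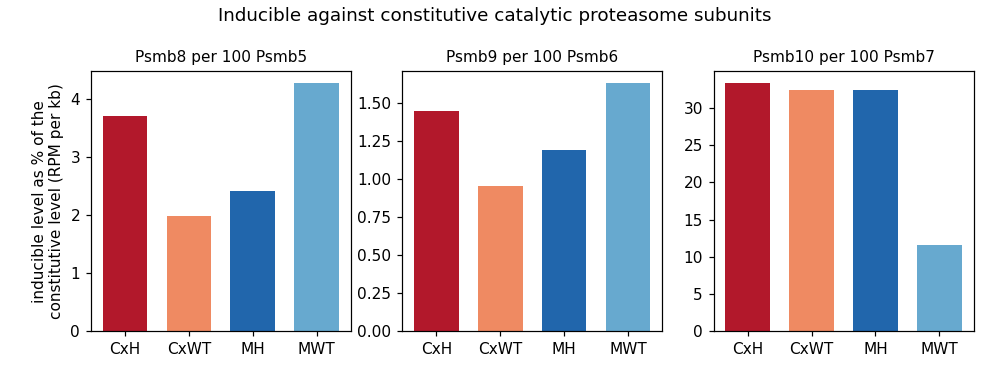
Level of the inducible subunit as a percentage of the constitutive subunit it replaces (vertical axes, from RPM per kb, starting at 0) in the 4 libraries. The first panel shows Psmb8 between 1.98% (CxWT) and 4.27% (MWT) of Psmb5, and the last shows Psmb10 at 11.6% of Psmb7 in MWT and at 32.4% to 33.3% elsewhere. Values are not corrected for GC content.

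The wider pathway was followed with lists that include the 9 genes where they belong. Their counts of calls are to be read against the shares of all genes called, 9.46% higher and 11.5% lower in CxH vs. CxWT and 12.3% and 12.7% in MH vs. MWT. The correction for GC content and length is given for the 9 genes only. Ratios and calls of the lists, those of cell types included, are without it. Of 28 class I heavy chains and relatives, 15 had counts. H2-T23, which encodes the non-classical molecule Qa-1, was called higher in CxH than in CxWT (7.06 vs. 3.00 RPM, log2 1.23), and H2-Q2 (-2.94, 10 reads against 67) and Cd1d1 (-1.78, 20 against 60) were called lower. H2-Q2 is also the H2 gene that shared most unchanged 50-base windows with H2-D1 (7.5%), so its reads could be dropped or exchanged too. Fcgrt, the neonatal Fc receptor, was at 0.699 in CxH vs. CxWT without a call and was called higher in MH than in MWT (0.805 ± 0.07). H2-D1, H2-K2, H2-Q2, H2-M3 and Cd1d1 were called lower in MH, and Mr1, which presents vitamin metabolites, was not called in either (-0.615 and -0.60).

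Of the 9 genes of peptide loading and trimming, 0 were called in CxH vs. CxWT, with a median of -0.13, and Lnpep, another trimming peptidase, was at -0.48. In MH vs. MWT the chaperone Canx (-0.81), the disulfide isomerase Pdia3 (-1.09) and the trimming peptidase Erap1 (-0.72) were called lower and 0 higher. Their transcripts had a GC content of 42.3%, 46.9% and 41.2%, below the median of 50.7% over all genes with a transcript sequence. Their ratios are not corrected for it. Tapbpl, a relative of tapasin that edits peptides outside the loading complex, had ratios of -0.13 and -0.03 in the same comparisons. Among the immunoproteasome subunits and their activator, Psmb8 was the single call in CxH vs. CxWT and Psmb10 in MH vs. MWT (0.99 ± 0.08, higher in MH). The activator subunits Psme1 and Psme2 had ratios of -0.13 and -0.28 in CxH vs. CxWT and of -0.41 and -0.31 in MH vs. MWT. Of 13 constitutive core subunits with counts, 0 were called in CxH vs. CxWT, where the largest ratios were those of Psma1 (-0.555), Psma5 (-0.34) and Psmb2 (-0.30), and in MH vs. MWT Psma6 was called lower (-1.13) and 0 higher.

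The class II pathway had counts for 7 of 11 genes. Its structural chains were low and close together. With the libraries in the order MWT, MH, CxWT and CxH, H2-Aa was at 3.94, 5.995, 5.15 and 5.82 RPM, H2-Ab1 at 2.73, 3.08, 3.93 and 3.90 RPM, and H2-Eb1 at 1.59, 2.25, 1.87 and 2.545 RPM. H2-Aa was lower in MWT than in each other library by more than 1.96 SE, as Cd74 was, while the lowest values of H2-Ab1 and H2-Eb1, also in MWT, were within counting error of the next library. The genes of the peptide exchange molecule H2-DM did not share an order. H2-DMa was called higher in CxH than in CxWT (0.71) and in MH than in MWT (1.03), while H2-DMb1 was called higher in CxH than in CxWT (1.34) and had a ratio of -0.56 in MH vs. MWT. H2-Oa was called higher in CxH than in CxWT as well (0.99), from 41 and 18 reads. The class I and class II regulators Nlrc5 and Ciita are not analysed here.

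The list of lysosomal antigen processing holds Ifi30 and 6 other enzymes. All 6 had a ratio above 0 in CxH vs. CxWT and below 0 in MH vs. MWT, as Ifi30 did, with medians of 0.48 and -0.83 over the 6. Cathepsin S (Ctss), which trims the invariant chain, was at 72.7 RPM in CxH against 41.9 RPM in CxWT, and at 39.4 RPM in MH against 107.5 RPM in MWT. Ctsd, cathepsin D, was at 696.7 RPM against 375.6 RPM and at 334.9 RPM against 620.8 RPM in the same pairs. Both were called in both comparisons, and Ctsl (-1.58) and Ctsh (-0.775) were called lower in MH too. Of 14 regulators with counts, Irf8, a transcription factor of microglia and macrophages, was called higher in CxH than in CxWT (1.08), whereas Irf2 was called higher (0.93) and Ifngr1, a chain of the interferon gamma receptor, lower (-0.94) in MH than in MWT. Rfx5 (-0.69) and Nfyb (0.61) were not called in CxH vs. CxWT. At most 1 of the 14 was called in each direction, which is near or below the shares of all genes. Among 5 costimulatory and checkpoint ligands with counts, Cd83 was called lower in CxH than in CxWT (-2.245) and in MH than in MWT (-1.91). Cd86 (-1.13) and Cd274 (-1.565) were called lower and Cd276 higher (0.755) in MH vs. MWT.

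**Figure D4:**
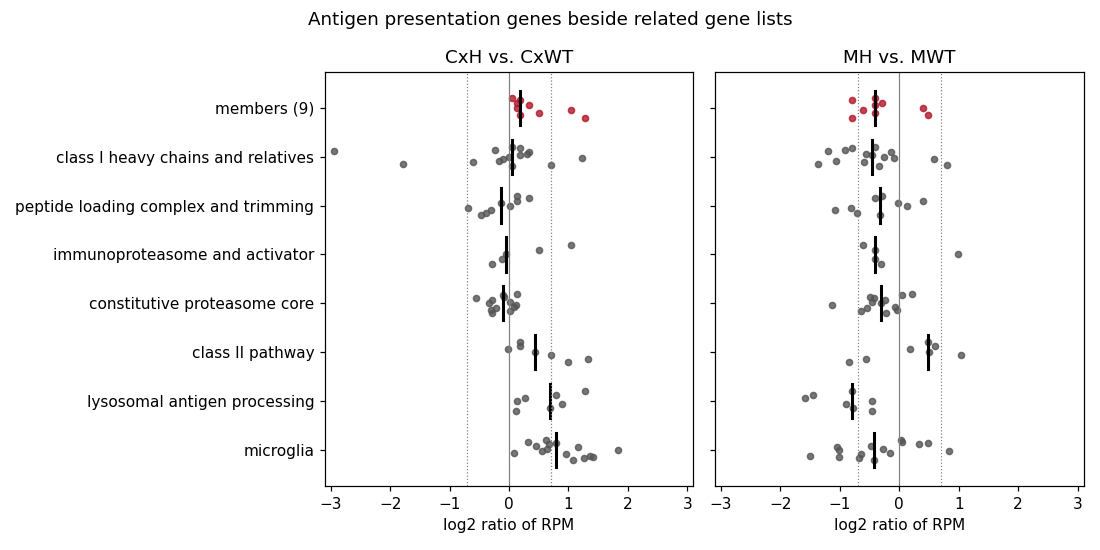
Log2 ratios of RPM (horizontal axes) of single genes (points) in 8 lists (rows) in CxH vs. CxWT and MH vs. MWT. Thick bars are list medians and dotted lines mark a log2 ratio of 0.7. Ratios are without the correction for GC content and length. The 7 lysosomal genes, Ifi30 among them, lie above 0 in the first panel and below 0 in the second, while the class II medians are above 0 in both (0.44 and 0.49).

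Markers of several cell types differed between the libraries as well. In CxH vs. CxWT 9.46% of all genes were called higher and 11.5% lower, and in MH vs. MWT 12.3% and 12.7%. Of 17 microglia markers, 15 had counts, and their summed level was 935.5 RPM in CxH, 522 RPM in CxWT, 603 RPM in MH and 752 RPM in MWT. In CxH vs. CxWT 8 of the 15 were called higher and 0 lower (median 0.79), with the largest ratios for Fcrls (1.83), C1qa (1.42) and Tyrobp (1.36). In MH vs. MWT the list was mixed (median -0.42). Fcrls (-1.015), C1qa (-1.015), Tyrobp (-1.50) and Aif1 (-1.06) were called lower and Selplg higher (0.84), and 5 of the 15 ratios were above 0, among them Tmem119 (0.48) and Csf1r (0.34).

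Of 11 measured markers of activated microglia, Lyz2 (1.93), Cst7 (1.56), Lgals3 (1.52), Cd68 (1.43) and Lpl (1.06) were called higher in CxH than in CxWT and Spp1 (-0.96) lower. In MH vs. MWT 6 were called lower, with Lyz2 at -1.93, and Lpl (0.82) was called higher. Perivascular macrophage markers (4 of 7 with counts) summed to 7.50 to 10.7 RPM. In CxH vs. CxWT Cbr2 (0.715) and Ms4a7 (1.06) were called higher, and in MH vs. MWT Cbr2 was called higher (1.49) and Ms4a7 lower (-2.105), while Mrc1 (0.67 and -0.07) and F13a1 (0.23 and -0.48) were not called. The calls of Cbr2 and Ms4a7 rest on few reads. Cbr2 had 47 against 25 and 29 against 8 reads in these comparisons, and Ms4a7 had 31 against 13 and 9 against 30. Dendritic cell markers (3 of 8) summed to 26.9 to 31.9 RPM. Flt3 was called lower in both comparisons (-1.315 and -0.87), Zbtb46 was called higher in CxH than in CxWT (0.76) and was at 0.69 in MH vs. MWT, and Siglech was not called (0.51 and -0.11).

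Of 10 T cell markers only Cd4 had counts, and it was called higher in CxH than in CxWT (2.45) and in MH than in MWT (1.98). It was at 11.2 and 10.4 RPM in CxH and MH but at 2.05 and 2.63 RPM in CxWT and MWT. The summed level of the cortical neuron genes was split between the libraries in the same way. Which cells carried Cd4 was not tested. The 6 B cell markers are not analysed here. Among 11 endothelial markers Cdh5 (0.78) and Cldn5 (0.72) were called higher in CxH than in CxWT and 0 lower, with Esam at 0.68, and Ly6a (-1.08) and Ly6c1 (-0.98) were called lower in MH than in MWT and 0 higher. The 6 astrocyte markers had no common direction. Gfap was called higher in CxH than in CxWT (1.11) and lower in MH than in MWT (-1.13), Aqp4 was called lower in both (-0.80 and -1.30), and Slc1a3 was at 0.42 and 0.36 without a call. Of the red cell genes Hba-a1 was called lower in CxH than in CxWT (-1.06) and higher in MH than in MWT (1.33), and Alas2 was at -0.21 and 0.46.

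Per 100 reads of the microglia markers, the range of Ifi30 narrowed from 2.41-fold to 1.39-fold over the 4 libraries (0.484 to 0.671) and that of Psmb8 from 2.05-fold to 1.29-fold (0.289 to 0.372). The range of H2-K1 widened from 1.33-fold to 1.74-fold (3.695 to 6.42) and that of Cd74 from 1.81-fold to 2.29-fold (0.7395 to 1.69). The 9 genes together came to 14.55 reads per 100 marker reads in CxH, the lowest library, and to 22.7 in CxWT, the highest. The part of microglia in the levels was not tested.

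The base composition of the 9 genes also bears on their ratios. Their transcripts had a GC content of 53.4% to 57.3% (median 56.45%), above the median of 50.7% over the 12307 genes with a transcript sequence. Genes of the same GC range with at least 100 reads in every library (2170 genes) had a median log2 ratio of 0.12 in CxH vs. CxWT, 0.17 in MH vs. MWT, 0.18 in CxH vs. MH and 0.25 for CxWT vs. MWT, each above the median of all 10770 such genes (-0.10, -0.06, 0.01 and 0.04). After a smooth correction for GC content and length, the log2 ratio of CxH vs. CxWT was -0.19 for H2-K1, -0.02 for H2-D1, -0.11 for Tap1 and Tapbp and -0.05 for Cd74, while Psmb8 (0.83) and Ifi30 (1.12) were still called. Thus 4 of the 9 genes, not all 9, stayed above 0. In MH vs. MWT the corrected ratio was -0.97 for H2-D1, -0.785 for Tap2 and -0.715 for Psmb8, all past the threshold, and -0.60 for Ifi30, which no longer was. Tapbp went from 0.40 to 0.05 and Cd74 from 0.49 to 0.37.

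**Figure D5:**
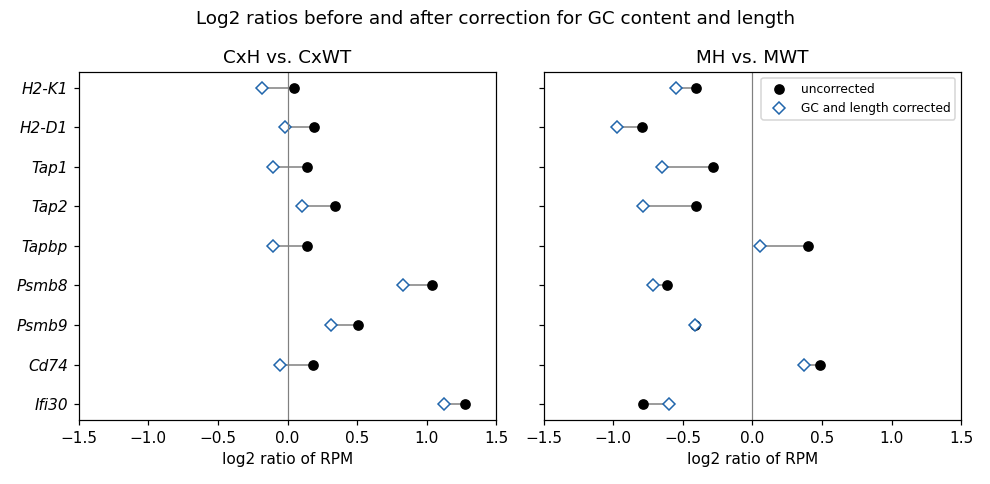
Log2 ratios of RPM (horizontal axes) of the 9 genes (rows) before (circles) and after (diamonds) correction for GC content and transcript length, in CxH vs. CxWT and MH vs. MWT. In the first panel 5 genes cross 0, and Psmb8 and Ifi30 remain at 0.83 and 1.12.

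The promoters are shown because several of the genes are known targets of common regulators and lie together on chromosome 17. RefSeq windows (GRCm38.p6) of the 250 bases before the start site were found for 8 of the 10 genes, and those of the 2 heavy chains, of Tap1, of Psmb8 and of Ifi30 are printed 5′ to 3′ along the gene. Capitals mark matches, on either strand, to the letters GAAANNGAA (core of the interferon response element), GAANNGAA (a shorter form chosen after these promoters had been read), TTCNNNGAA (bound by STAT factors), CCAAT (bound by NF-Y), TGACG (bound by CREB and ATF factors) or the kappaB consensus. The windows are chr17:34000348-34000597 (minus strand) for H2-K1, chr17:35262844-35263093 (plus) for H2-D1, chr17:34187306-34187555 (plus) for Tap1, chr17:34197945-34198194 (plus) for Psmb8 and chr8:70766664-70766913 (minus) for Ifi30.
H2-K1: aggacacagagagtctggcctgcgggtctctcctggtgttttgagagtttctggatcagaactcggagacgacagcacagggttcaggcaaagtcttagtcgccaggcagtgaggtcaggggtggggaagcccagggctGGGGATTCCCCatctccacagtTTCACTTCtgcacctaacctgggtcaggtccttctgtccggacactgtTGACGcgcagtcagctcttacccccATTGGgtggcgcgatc
H2-D1: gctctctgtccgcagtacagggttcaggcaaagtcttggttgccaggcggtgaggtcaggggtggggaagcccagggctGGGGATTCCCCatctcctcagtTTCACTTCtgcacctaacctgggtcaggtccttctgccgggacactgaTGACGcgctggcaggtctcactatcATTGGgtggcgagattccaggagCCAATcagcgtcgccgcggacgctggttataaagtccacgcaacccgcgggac
Tap1: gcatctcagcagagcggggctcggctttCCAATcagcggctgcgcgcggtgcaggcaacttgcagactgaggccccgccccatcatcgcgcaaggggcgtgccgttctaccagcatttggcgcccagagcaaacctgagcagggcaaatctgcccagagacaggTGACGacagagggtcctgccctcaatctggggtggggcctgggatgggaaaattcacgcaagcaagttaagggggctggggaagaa
Psmb8: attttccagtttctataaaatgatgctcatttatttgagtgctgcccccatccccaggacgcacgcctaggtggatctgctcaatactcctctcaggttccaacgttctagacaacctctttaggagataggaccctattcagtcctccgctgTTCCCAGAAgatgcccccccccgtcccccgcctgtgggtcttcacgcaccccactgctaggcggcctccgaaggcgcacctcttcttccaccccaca
Ifi30: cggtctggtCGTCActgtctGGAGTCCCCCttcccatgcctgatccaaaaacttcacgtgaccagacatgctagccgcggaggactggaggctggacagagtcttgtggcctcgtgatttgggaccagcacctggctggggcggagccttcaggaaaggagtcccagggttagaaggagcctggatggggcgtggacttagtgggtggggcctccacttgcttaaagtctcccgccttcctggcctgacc
The heavy chain promoters share the order kappaB, GAANNGAA, TGACG and CCAAT, with overlapping kappaB matches from 111 to 101 bases before the H2-K1 start and from 171 to 161 before the H2-D1 start. The Tap1 window shares 225 bases with that of Psmb9, which is transcribed the other way, so its CCAAT and TGACG matches belong to both genes. Over all 32851 windows of the table, 7.1% held GAAANNGAA, 17.2% GAANNGAA, 7.0% TTCNNNGAA, 33.8% CCAAT, 17.8% TGACG and 7.3% the kappaB consensus. Among the 8 windows of the listed genes, kappaB was found in 4 (H2-K1, H2-D1, Ifi30 and B2m), TGACG in 6, CCAAT in 6, GAANNGAA in 2, TTCNNNGAA in 1 (Psmb8) and GAAANNGAA in 1 (B2m). These are matches of letters only.

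Tap1 (chr17:34324498-34334170, plus), Psmb9 (chr17:34318932-34324697, minus), Psmb8 (chr17:34334666-34338399, plus), Tap2 (chr17:34340472-34353266, plus) and Tapbp (chr17:34052844-34066235, plus, all NCBIM37/mm9) lie in the same region as H2-K1. In GENCODE vM1 the models of Tap1 and Psmb9 overlap by 200 or 212 bases, by the model taken. Gm20496 on the minus strand overlaps Psmb8 by 2140 bases and Tap2 by 1923 bases. Gm15821 on the minus strand overlaps Tap2 by 3148 bases, and Zbtb22 on the plus strand overlaps Tapbp by 3421 bases. Whether the counting used strand is not given in the sources used here, so reads from these stretches cannot be assigned with certainty. Ifi30 lies apart, at chr8:73286673-73291050 on the minus strand, with no model of another gene over it.

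Psmb8, which lies between Tap1 and Tap2, had a CxH vs. CxWT ratio of 1.04 ± 0.23 where Tap1 had 0.14 ± 0.18 and Tap2 0.34 ± 0.14. Averaged over the 9 genes, log2 RPM centred on its own mean was highest in CxH (0.31), followed by MWT (0.06), CxWT (-0.11) and MH (-0.26). The lead of CxH over MWT did not hold after the GC and length correction, where 3 of the 9 ratios of CxH vs. MWT were above 0 and 6 below, with a median of -0.02. The 5 genes outside the lists with the most similar centred values over the 4 libraries were P2rx4, Bri3, Wdr83, Cyhr1 and Il17d, at Euclidean distances of 0.049 to 0.079 from that average. P2rx4, an ATP-gated channel of microglia and other cells, was at 9.97 RPM in CxH, 7.50 RPM in CxWT, 7.04 RPM in MH and 8.46 RPM in MWT. Of the 9 genes themselves Psmb9 was nearest to the average (0.099) and Ifi30 farthest (0.70).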

How the data were processed

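RNA was sequenced from pools of 7 mice per condition, 1 library each. The authors prepared the libraries with the SOLiD Whole Transcriptome Analysis kit, ran them together on a SOLiD 3 Plus instrument and aligned the reads to NCBI37/mm9 with PASS 2.10 (best hit, at most 2 mismatches, no gap). The deposited counts are whole reads per gene, for which the authors kept reads with 1 gene as target and genes with over 50% of their length covered. The gene annotation and the use of strand are not given in the sources used here.

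Counts were scaled to 1000000 of the aligned reads that the study gives for each library (RPM). All 12700 genes entered a Poisson likelihood ratio test, and a call needed a log2 ratio of 0.7 or more in either direction with a p-value under 0.05, as in the study, with a count of 0 set to 1 for the ratio. This compares libraries, not conditions. Symbols came from a RefSeq gene table (12690 genes matched by Entrez identifier), and positions, GC content and length from GENCODE vM1. The test was checked on simulated counts. TMM factors came from edgeR 4.0.16 and size factors from DESeq2 1.42.0 under R 4.3.3, and the rest was computed in Python 3.11.15 with scipy 1.17.1. Other alternatives were column totals, a minimum of 100 reads in both libraries, a log2 threshold of 1, 0.5 added to every count, Benjamini-Hochberg adjustment, an exact test in edgeR with an assumed coefficient of variation of 0.2, and a correction for GC content and length fitted over 10770 genes.

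The 10 genes and all lists were chosen with earlier results of these data known. Named were these genes, Ids, in each list the 3 genes with the largest log2 ratio in size in CxH vs. CxWT among those with at least 100 reads in a library, further genes of the pathway set by name, and the 5 genes most similar to the average. Where 5 or fewer genes of a list were called in 1 direction in CxH vs. CxWT or MH vs. MWT, these were named as well, after their values were seen. A gene that this rule named is not reported here.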

Additional observations from a re-analysis of the deposited data

Results flagged for a closer look

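For 4 of the 9 genes and for Ids, the log2 ratio of CxH vs. CxWT and that of MH vs. MWT had opposite signs, each beyond 1.96 SE of counting error. The first minus the second was 2.06 for Ifi30, 1.65 for Psmb8, 0.98 for H2-D1, 0.745 for Tap2 and -2.63 for Ids. With 1 library per condition the difference was not tested against variation between libraries. After correction for GC content and length, H2-D1 no longer had opposite signs (-0.02 and -0.97) and the Tap2 ratio of CxH vs. CxWT (0.10) was within 1.96 SE of 0, whereas Ifi30 (1.12 and -0.60) and Psmb8 (0.83 and -0.715) kept opposite signs.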

How the results depend on the processing

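No paired analysis was possible because each condition had 1 library, and no replicate could be left out. Of 270 recomputed log2 ratios of the 9 genes, 244 kept their direction and their side of the threshold. A minimum of 100 reads only removes genes and leaves the ratios as they are. Correction for GC content and length turned 12 of 54 ratios. In CxH vs. CxWT these were H2-K1 (-0.186), H2-D1 (-0.017), Tap1 (-0.108), Tapbp (-0.108) and Cd74 (-0.053). In CxH vs. MWT they were Tap1 (-0.501), Tap2 (-0.18), Tapbp (-0.021) and Psmb9 (-0.007), and in the other pairs Tapbp in CxH vs. MH (-0.073) and MH vs. CxWT (-0.035) and Tap2 in CxWT vs. MWT (-0.281). Other scalings turned ratios near 0: Tap2 in CxWT vs. MWT (-0.078 with column totals, -0.036 with TMM and with DESeq2 factors), Tap1 in CxH vs. MWT (-0.076 with column totals), H2-K1 in that pair (0.029 with TMM and 0.023 with DESeq2 factors) and Psmb9 in MH vs. CxWT (0.001 with DESeq2 factors).

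The 2 calls in CxH vs. CxWT became 0 with at least 100 reads in both libraries, since CxWT had 57 reads of Psmb8 and 85 of Ifi30, and remained 2 under the other 8 alternatives. The 2 calls in MH vs. MWT became 0 with a log2 threshold of 1 and with an assumed coefficient of variation of 0.2, and 3 with the GC and length correction, where Ifi30 was lost and Tap2 and Psmb8 were added. The single call in CxH vs. MWT became 0 with that threshold, with that coefficient of variation and with the GC and length correction. The single call in CxWT vs. MWT became 2 with column totals and with the GC and length correction, where Psmb8 was added, and 0 with at least 100 reads or a log2 threshold of 1. The 3 calls in CxH vs. MH stayed between 2 and 3 (Tap2 was lost with the GC and length correction, a log2 threshold of 1 and an assumed coefficient of variation of 0.2, and Psmb8 with at least 100 reads), and MH vs. CxWT stayed at 0 under all 9 alternatives. Against the aligned reads, TMM factors raised the log2 ratios of CxH vs. CxWT by 0.09 and those of MH vs. CxWT by 0.11, and column totals gave ratios of CxH vs. MWT a shift of -0.11. With under 60 reads, Psmb9 could not show differences of the size found for H2-K1.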
